A study of Bos taurus with 8 samples.

Results

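The transcripts described here encode the machinery that carries proteins into the endoplasmic reticulum (ER) and the coats of the vesicles that move them between ER and Golgi. They were chosen by gene symbol alone, as those that begin with SEC61, SEC22, SEC23, SEC24, SEC31, SPCS, COPA, COPB, COPE, COPG, COPZ or TMED, or with SSR or SRP followed by a number. The rule found 47 of the 16606 genes in the deposited table, and 46 of them reached the mean of 1 CPM (reads per 1000000 reads) that was asked of a gene before testing. The remaining member, SPCS2, was not tested. Transcripts were measured by RNA sequencing in 8 libraries of bovine (Bos taurus) embryos produced by in vitro fertilisation of oocytes from slaughterhouse ovaries, each made from a pool of 5 embryos. The 4 groups of 2 libraries were control and edited embryos at the 4-cell stage and control and edited embryos at the 8-cell stage. Edited embryos had been injected into the cytoplasm as zygotes with PEmax, a prime editor, and a guide RNA directed at RPL12, which encodes a protein of the large ribosomal subunit. The edit is named RPL12A148G. The labels do not say whether controls were injected, what share of alleles carried the edit, or whether cumulus cells had been stripped off. The titles call the samples base-edited, and the 4-cell samples carry oocytes as their source, so the stage was taken from the titles. All embryos came from Holstein semen, and no genotype, parent or age beyond the cell number is given for a pool.

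Proteins bound for secretion or for membranes are recognised as they leave the ribosome by the signal recognition particle (SRP) and handed to the SEC61 channel in the ER membrane, where the translocon-associated protein complex (TRAP, encoded by the SSR genes) helps many of them through and the signal peptidase cuts off their signal. Folded cargo leaves the ER in vesicles coated by COPII and escaped ER residents return in vesicles coated by COPI. The p24 proteins, encoded by the TMED genes, span the membrane of both kinds of vesicle and help to select cargo. In the oocyte this pathway delivers zona pellucida proteins, secreted growth factors and the contents of cortical granules, and the cleaving embryo starts from the transcripts stored by the oocyte.

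The libraries held 33527531 to 35122409 recovered reads, at which 3 reads equal 0.0858 to 0.0899 CPM, and reads of amplified cDNA are not independent molecules. RPL12 stood at 159 and 174 CPM in the 4-cell controls, 27.5 and 33.6 CPM in 4-cell edited, 96.3 and 97.6 CPM in 8-cell control and 14.1 and 11.9 CPM in 8-cell edited libraries, which gave log2 fold changes of -2.41 for 4-cell and -2.81 for 8-cell embryos (limma adjusted p = 2.36e-06 and 2.99e-06). All 17 oocyte and early embryo markers in the table passed the filter. They summed to 19876 and 26243 CPM in 4-cell control, 49476 and 57922 CPM in 4-cell edited, 50351 and 37701 CPM in 8-cell control and 52852 and 56179 CPM in 8-cell edited libraries, with 6 higher and 1 lower with editing at the 4-cell stage and 2 higher at the 8-cell stage. BTG4 made up most of each of these sums, from 12016 CPM in a 4-cell control to 37563 CPM in a 4-cell edited library. Transcripts of cumulus and granulosa cells, which surround the oocyte, were present too, and 15 of the 21 tested markers were lower with editing at the 4-cell stage and 8 at the 8-cell stage. The 24 such markers in the table summed to 1926 and 1553 CPM in 4-cell control, 485 and 544 CPM in 4-cell edited, 683 and 1044 CPM in 8-cell control and 533 and 504 CPM in 8-cell edited libraries. HSD3B1, a steroidogenic enzyme, was at 283 CPM in both 4-cell controls and at 5.87 and 17.8 CPM in 4-cell edited libraries. At the 8-cell stage its controls were far apart, at 40.7 and 176 CPM, with edited libraries at 8.31 and 3.09 CPM. The granulosa transcription factor FOXL2 was at 0 in 4 of the 8 libraries and at most 0.464 CPM elsewhere, the luteinising hormone receptor LHCGR was at most 0.0578 CPM, and HAS2, which cumulus cells use to expand, stood at 24.3 and 55.4 CPM in 4-cell control and 132 and 124 CPM in 4-cell edited libraries. Of the fibroblast and theca list all 5 tested markers were lower with editing at the 4-cell stage and 4 at the 8-cell stage, with sums of 3052 and 6313 CPM in 4-cell control, 1313 and 1926 CPM in 4-cell edited, 3105 and 2570 CPM in 8-cell control and 126 and 771 CPM in 8-cell edited libraries. LUM made up most of each of the fibroblast and theca sums, from 120 CPM in an 8-cell edited to 5965 CPM in a 4-cell control library. Blood and endothelial markers summed to at most 2.57 CPM. In pools of whole embryos, fewer cells of a type and less RNA per cell cannot be told apart. The part of these shifts in marker levels in the results below was not tested beyond the covariate named there.

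At the 4-cell stage the members that differed were almost all lower in edited embryos: 20 of 46 were lower and 1, TMED6, was higher. The 20 comprised all 4 TRAP subunits, 7 of 10 p24 genes, 4 of 8 COPI genes, both SEC61 alpha subunits, SRP14, SEC22B and SEC23B. The log2 fold changes of the 21 ran from -3.94 for TMED1 to 1.74 for TMED6. The share called in either direction, 45.7%, was near the 44.7% of all 12129 tested genes, whereas by direction 43.5% of the members and 25.8% of all genes were lower and 2.17% and 18.9% were higher. The median log2 fold change was -0.49 over the members and -0.02 over all genes. At the 8-cell stage 10 members were lower, which is 21.7% against 15.6% of all genes called in either direction, and none was higher, where 14.5% of all genes were lower and 1.08% higher. The median was -0.28 over the members and 0.00 over all genes. Members lower at both stages numbered 9, which is 45.0% of the 20 and 90.0% of the 10. The same overlap over all tested genes was not counted, so these shares have no baseline. At the 4-cell stage both edited libraries lay below both controls for 54.3% of the members and 37.5% of all genes, and above them for 10.9% and 33.5%. The 8-cell shares were 58.7% and 32.7% below, and 4.35% and 27.7% above. With the mean log2 level of the 21 tested cumulus and granulosa markers as a covariate, limma called 0 members at each stage, and 12 and 7 had an unadjusted p under 0.05. Of all 12129 tested genes 1 and 49 were called, and 1308 and 988 had an unadjusted p under 0.05. The medians with it were -0.44 and -0.39 over the members and 0.05 and -0.01 over all genes. Of the 21 markers 15 and 8 were themselves lower with editing at the 4-cell and 8-cell stage. The covariate therefore cannot separate marker levels from editing.

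**Figure D1:**
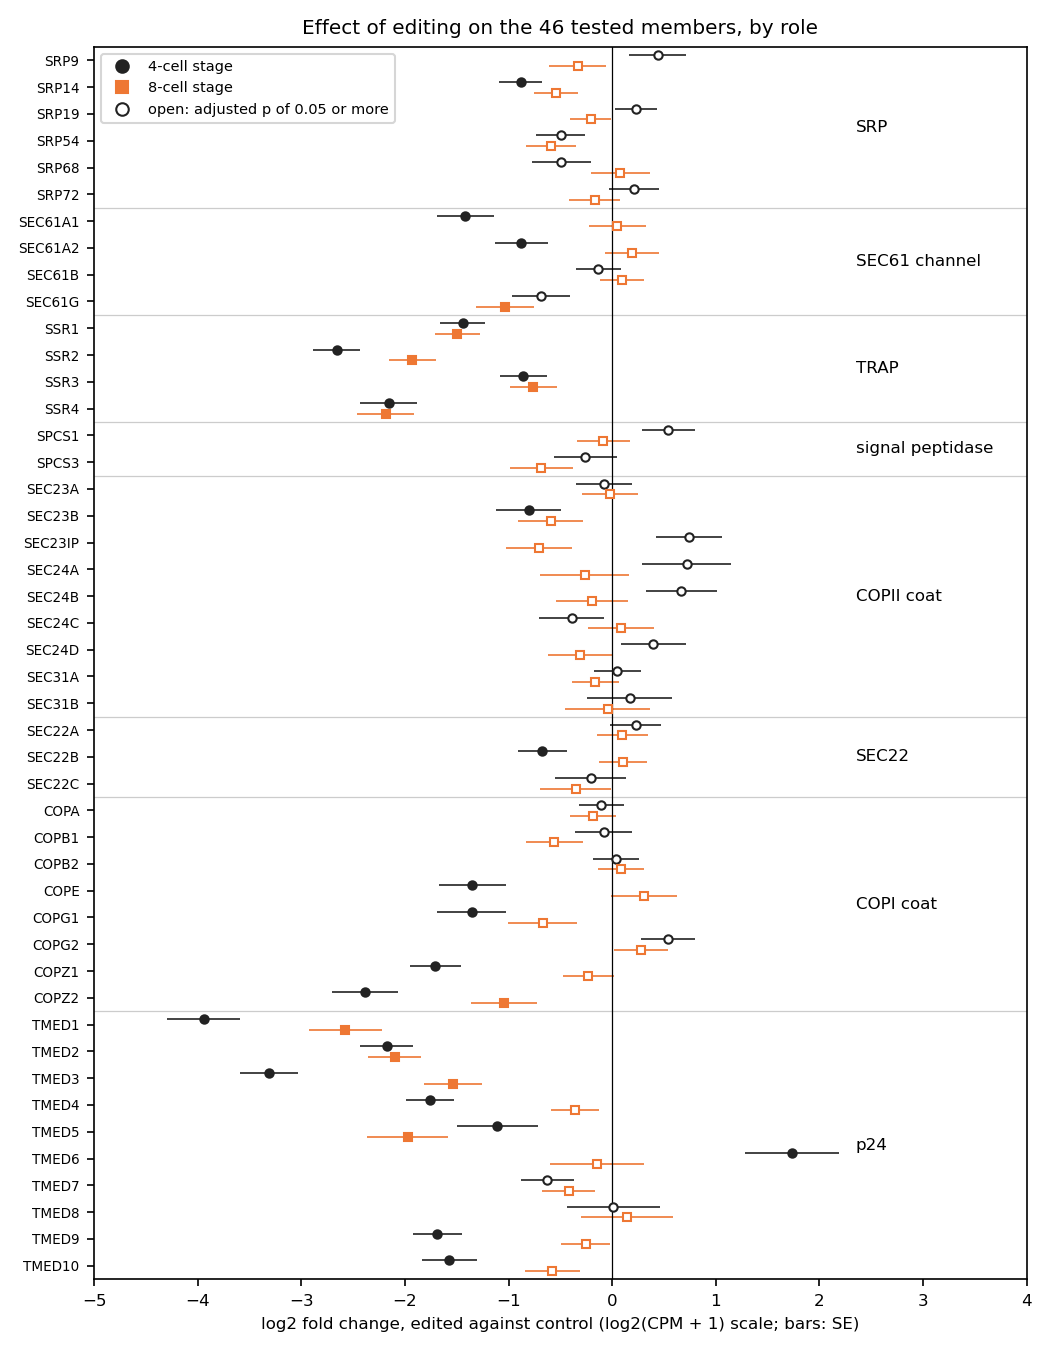
Log2 fold change of edited over control embryos (x axis, log2(CPM + 1) scale, bars are the SE from limma) for the 46 tested members, grouped by role on the y axis; circles are the 4-cell and squares the 8-cell stage, and filled symbols passed an adjusted p of 0.05. The 4 TRAP genes lie left of 0 with filled symbols at both stages, whereas 8 of 9 COPII coat genes have open symbols at both.

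The calls were unevenly spread over the roles as grouped by the rule. At the 4-cell stage they ran from 0 of 2 tested signal peptidase accessory genes to 4 of 4 TRAP genes. The summed CPM of the 4 TRAP genes was 1527 and 1279 CPM for 4-cell controls, 496 and 526 CPM for 4-cell edited, 756 and 907 CPM for 8-cell controls and 317 and 396 CPM for 8-cell edited libraries. The 10 p24 genes summed to 1033 and 901, 257 and 285, 390 and 437, and 216 and 259 CPM in the same order. In both sums every edited library lay below every control library. The same held for the sum of the 4 SEC61 channel genes, at 1245 and 795 CPM for 4-cell controls, 727 and 652 CPM for 4-cell edited, 767 and 891 CPM for 8-cell controls and 716 CPM for both 8-cell edited libraries. For the COPI genes both edited libraries lay below both controls within each stage. The SRP genes summed to between 853 and 1092 CPM over the 8 libraries and the COPII genes to between 283 and 396 CPM. At the 4-cell stage control and edited libraries overlapped in both of these sums, and at the 8-cell stage they did not: SRP stood at 1092 and 1023 CPM in controls against 853 and 889 CPM, and COPII at 339 and 335 against 285 and 300 CPM.

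**Figure D2:**
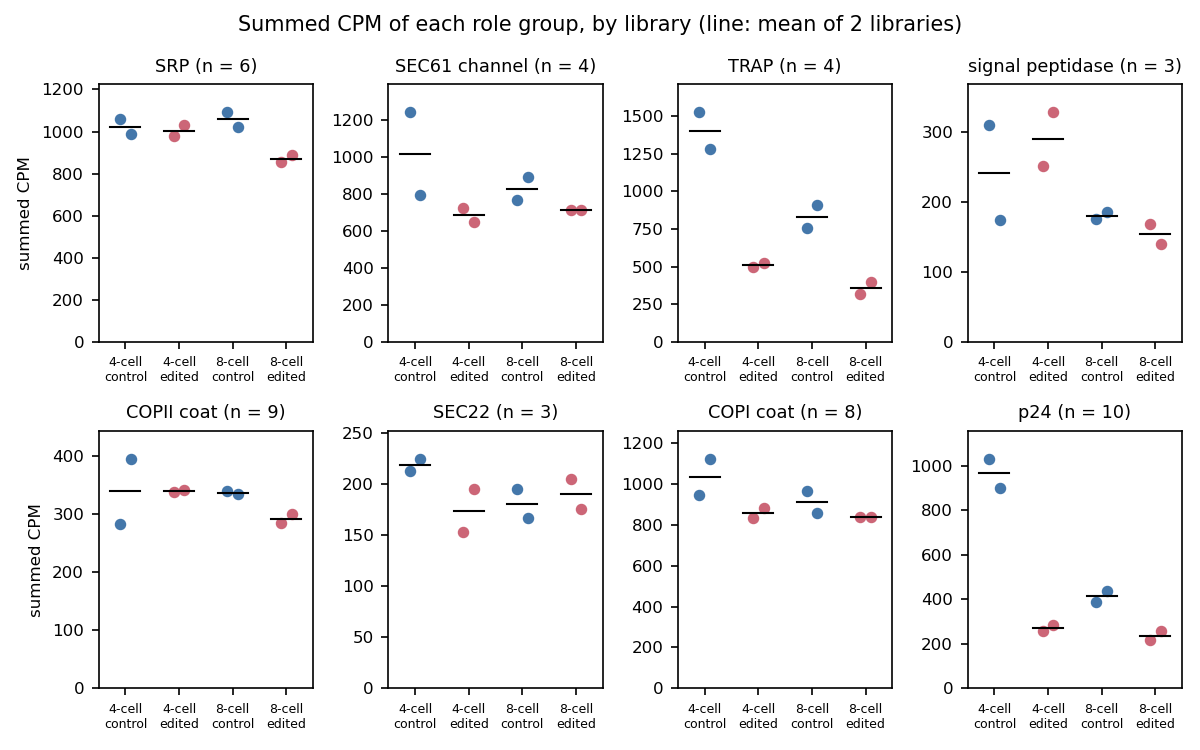
Summed CPM (y axis, from 0) of the members of each role group in each of the 8 libraries; points are libraries, lines the mean of the 2 libraries of a group, blue control and red edited. The TRAP, p24, SEC61 and COPI sums separate control from edited libraries within each stage, and the SRP and COPII sums do so at the 8-cell stage only.

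Of the 6 protein subunits of SRP, SRP14 was lower with editing at the 4-cell stage and the other 5 did not pass. SRP14, which with SRP9 forms the part of the particle that slows translation, stood at 232 and 205 CPM in 4-cell controls and 112 and 124 CPM in 4-cell edited libraries, then at 173 and 167 CPM in 8-cell controls and 119 and 113 CPM in 8-cell edited libraries. All 4 edited libraries lay below all 4 controls. The fall was 1.85-fold in 4-cell embryos (log2 fold change -0.88, SE 0.210, adjusted p = 0.00290), and the 8-cell value of -0.54 did not pass (adjusted p = 0.0999). Its partner SRP9 stood at 65.4 and 74.7 CPM in 4-cell control and 72.4 and 125 CPM in 4-cell edited libraries, and at 62.6 and 49.4 CPM in 8-cell control and 42.5 and 45.5 CPM in 8-cell edited libraries. It was not called at either stage (log2 fold changes 0.44 and -0.33), but in edited embryos it fell between the stages (-1.09, SE 0.275, adjusted p = 0.0333). SRP54, the subunit that binds the signal peptide, had values of -0.50 and -0.59 at the 4-cell and 8-cell stage (adjusted p = 0.104 and 0.121). SRP19, SRP68 and SRP72, which build the particle on its RNA, lay between -0.49 and 0.23 over both stages, with no call.

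The SEC61 channel consists of an alpha subunit that forms the pore and the small beta and gamma subunits. Both genes for the alpha subunit were lower with editing at the 4-cell stage and overlapped with controls at the 8-cell stage, and the gamma subunit was lower at the 8-cell stage. SEC61A1 stood at 90.3 and 66.3 CPM in 4-cell control and 32.2 and 24.9 CPM in 4-cell edited libraries, a 2.74-fold difference (log2 fold change -1.42, SE 0.275, adjusted p = 0.000652). At the 8-cell stage its controls were at 42.6 and 61.5 CPM and its edited libraries at 57.0 and 49.3 CPM, so that the groups overlapped (log2 fold change 0.05, SE 0.275). SEC61A2 stood at 171 and 118 CPM in 4-cell control and 70.8 and 83.6 CPM in 4-cell edited libraries (log2 fold change -0.88, SE 0.259, adjusted p = 0.0116), and at 115 and 78.9 against 101 and 118 CPM at the 8-cell stage (0.19). Its 4-cell call was lost when 4-cell control library 1 or 4-cell edited library 1 was left out.

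SEC61G, the gamma subunit, stood at 583 and 289 CPM in 4-cell control and 263 and 245 CPM in 4-cell edited libraries. The 2 controls differed from each other by more than the lower one differed from the edited libraries, and the log2 fold change of -0.69 did not pass (adjusted p = 0.0547). At the 8-cell stage SEC61G stood at 261 and 327 CPM in controls and 157 and 129 CPM in edited libraries, a 2.06-fold difference (-1.04, SE 0.278, adjusted p = 0.0162). That call was lost with edgeR, without a filter on low values and when 8-cell control library 2 or 8-cell edited library 2 was left out. SEC61B, the beta subunit, ranged over the 8 libraries from 298 to 424 CPM with no call in any comparison.

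TRAP was the complex with every subunit lower in edited embryos at both stages. SSR2, its beta subunit, stood at 411 and 404 CPM in 4-cell control, 60.0 and 67.6 CPM in 4-cell edited, 172 and 206 CPM in 8-cell control and 42.3 and 55.8 CPM in 8-cell edited libraries. It was 6.39-fold lower with editing in 4-cell embryos (log2 fold change -2.66, SE 0.227, adjusted p = 9.92e-07) and 3.85-fold lower at the 8-cell stage (-1.93, SE 0.227, adjusted p = 2.41e-05). The edited libraries of both stages lay below the controls of both stages.

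SSR4, the delta subunit, stood at 140 and 114 CPM in 4-cell control, 28.8 and 26.5 CPM in 4-cell edited, 59.4 and 96.8 CPM in 8-cell control and 15.4 and 16.4 CPM in 8-cell edited libraries. The difference was 4.60-fold and 4.92-fold for 4-cell and 8-cell embryos (log2 fold changes -2.16 and -2.19, SE 0.276 for both, adjusted p = 1.89e-05 and 4.19e-05). SSR1, the alpha subunit, stood at 306 and 285 CPM in 4-cell control, 111 and 105 CPM in 4-cell edited, 157 and 196 CPM in 8-cell control and 59.1 and 64.2 CPM in 8-cell edited libraries, a 2.73-fold and a 2.87-fold difference (-1.44 and -1.50, SE 0.217 for both, adjusted p = 7.83e-05 and 0.000134). SSR3, the gamma subunit, had the smallest differences of the 4. It stood at 670 and 475 CPM in 4-cell control, 296 and 326 CPM in 4-cell edited, 367 and 408 CPM in 8-cell control and 200 and 260 CPM in 8-cell edited libraries (-0.86 and -0.76, SE 0.227 for both, adjusted p = 0.00603 and 0.0301). Its 4-cell call was lost without 4-cell control library 1 or 4-cell edited library 1, and its 8-cell call in 9 of 19 alternatives, among them edgeR, DESeq2 and leaving out any single 8-cell library. For SSR1, SSR2 and SSR4 the calls at both stages held in each of the alternatives except the covariate of cumulus and granulosa markers, with which the adjusted p lay between 0.153 and 0.533. The log2 fold changes of these 3 genes with the covariate were -1.17, -2.48 and -1.41 in 4-cell and -1.30, -1.80 and -1.66 in 8-cell embryos.

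**Figure D3:**
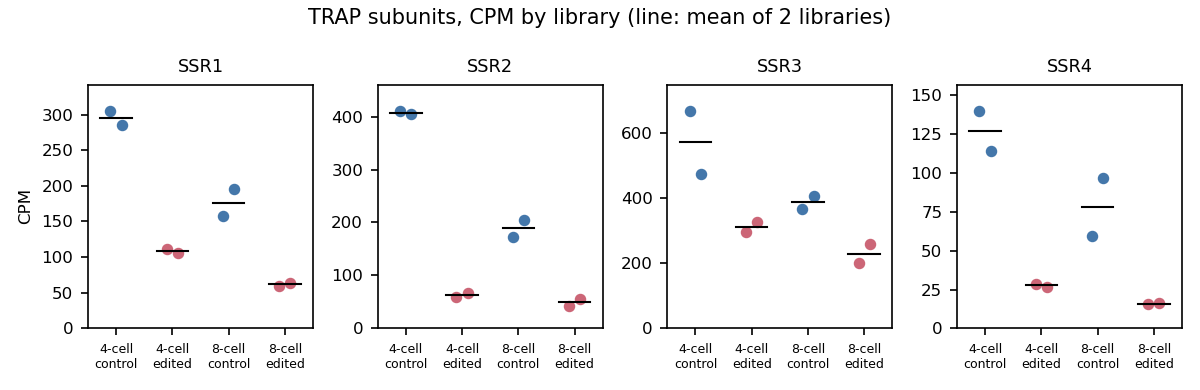
CPM of the 4 TRAP subunit genes (y axes, from 0, each panel with its own scale) in each of the 8 libraries; points are libraries, lines the mean of the 2 libraries of a group, blue control and red edited. In each panel the 4 edited libraries lie below the 4 controls, and both 4-cell controls lie above both 8-cell controls.

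Neither tested signal peptidase accessory subunit was called with editing at either stage. The catalytic subunits SEC11A and SEC11C lie outside the rule and are given with the other pathway genes below. SPCS1 stood at 194 and 116 CPM in 4-cell control and 194 and 249 CPM in 4-cell edited libraries (log2 fold change 0.54, adjusted p = 0.0998) and at 128 and 135 against 138 and 111 CPM at the 8-cell stage. SPCS3 stood at 115 and 57.1 CPM in 4-cell control and 57.2 and 79.9 CPM in 4-cell edited libraries, and at 46.6 and 49.6 CPM in 8-cell control and 29.9 and 29.2 CPM in 8-cell edited libraries. Its 8-cell groups did not overlap and were 1.63-fold apart, but the log2 fold change of -0.68 did not pass (unadjusted p = 0.0397, adjusted p = 0.160), and between the stages it fell in edited embryos (-1.17, SE 0.305, adjusted p = 0.0389). SPCS2 had between 4 and 28 reads per library, at most 0.811 CPM, and was left untested.

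The COPII coat is built from SEC23 and SEC24, which form the inner layer and bind cargo, and SEC31, which with SEC13 forms the outer cage. SEC13 lies outside the rule and is given with the other pathway genes below. Of the 9 genes that the rule groups here, SEC23B was lower with editing at the 4-cell stage and none differed at the 8-cell stage. SEC23B stood at 54.7 and 55.8 CPM in 4-cell control and 31.5 and 30.9 CPM in 4-cell edited libraries, a 1.77-fold difference (log2 fold change -0.80, SE 0.313, adjusted p = 0.0467). This call was lost in 10 of 19 alternatives, among them edgeR, DESeq2 and leaving out any single 4-cell library. The 8-cell controls were at 56.2 and 41.2 CPM and the edited libraries at 22.0 and 45.1 CPM. Its paralogue SEC23A was at 71.1 and 112 CPM in 4-cell control and 78.1 and 91.8 CPM in 4-cell edited libraries (-0.08), and at 71.5 and 84.0 against 63.4 and 91.5 CPM at the 8-cell stage (-0.02).

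The cargo adaptors SEC24A, SEC24B and SEC24D had log2 fold changes of 0.72, 0.67 and 0.40 at the 4-cell stage and -0.26, -0.19 and -0.31 at the 8-cell stage, and SEC24C had -0.39 and 0.09, none of them called. SEC31A ranged from 89.2 to 118 CPM over the 8 libraries and SEC31B from 1.79 to 4.55 CPM. SEC23IP, a partner of SEC23 rather than a coat subunit, stood at 9.10 and 13.3 CPM in 4-cell control, 21.4 and 17.0 CPM in 4-cell edited, 21.3 and 22.1 CPM in 8-cell control and 13.7 and 12.2 CPM in 8-cell edited libraries. Edited libraries were thus above controls at the 4-cell stage and below them at the 8-cell stage, with values of 0.74 and -0.71, and neither these nor their difference of -1.44 passed (adjusted p = 0.0695, 0.163 and 0.0770).

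SEC22B, a SNARE protein that lets vesicles fuse between ER and Golgi, stood at 144 and 150 CPM in 4-cell control and 82.4 and 102 CPM in 4-cell edited libraries, a 1.59-fold difference (log2 fold change -0.67, SE 0.234, adjusted p = 0.0277). The call was lost in 7 of 19 alternatives, among them TMM scaling, edgeR and leaving out either 4-cell control library or 4-cell edited library 1. At the 8-cell stage the values were 122 and 93.0 CPM in controls and 126 and 104 CPM in edited libraries. SEC22A ranged from 55.9 to 84.0 CPM and SEC22C from 6.65 to 13.0 CPM over the 8 libraries, with no call in any comparison.

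The COPI coat genes chosen by the rule were divided. The rule leaves out ARCN1, which encodes the delta subunit and is given with the other pathway genes below. At the 4-cell stage COPZ1 and COPZ2, which encode the small zeta subunit, COPG1 (gamma) and COPE (epsilon) were lower in edited embryos. COPA, COPB1 and COPB2, which encode the large alpha and the beta subunits, had log2 fold changes between -0.11 and 0.04. COPZ2 stood at 61.0 and 41.6 CPM in 4-cell control, 10.1 and 7.72 CPM in 4-cell edited, 19.6 and 23.2 CPM in 8-cell control and 8.91 and 10.8 CPM in 8-cell edited libraries. It was 5.76-fold lower at the 4-cell stage (-2.39, SE 0.318, adjusted p = 2.63e-05) and 2.17-fold lower at the 8-cell stage (-1.05, SE 0.318, adjusted p = 0.0330), the only COPI gene called there. The 8-cell call was lost when any single 8-cell library was left out and without a filter on low values.

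COPZ1 stood at 113 and 131 CPM in 4-cell control and 43.2 and 31.0 CPM in 4-cell edited libraries, 3.29-fold apart (log2 fold change -1.71, SE 0.249, adjusted p = 6.08e-05). In 8-cell embryos it stood at 69.7 and 64.3 CPM in controls and 62.0 and 52.4 CPM in edited libraries (-0.23). COPG1 was at 18.7 and 20.6 CPM in 4-cell control and 7.72 and 6.43 CPM in 4-cell edited libraries (-1.36, SE 0.331, adjusted p = 0.00350), and at 12.4 and 15.2 against 9.53 and 7.10 CPM at the 8-cell stage (-0.67, adjusted p = 0.209). Its paralogue COPG2 lay the other way, at 97.9 and 144 CPM in 4-cell control, 215 and 140 CPM in 4-cell edited, 206 and 175 CPM in 8-cell control and 250 and 213 CPM in 8-cell edited libraries (0.54 and 0.28, adjusted p = 0.102 and 0.533). COPE was at 138 and 123 CPM in 4-cell control and 65.5 and 38.9 CPM in 4-cell edited libraries (-1.35, SE 0.321, adjusted p = 0.00295). Its 8-cell controls were far apart, at 49.3 and 105 CPM, with edited libraries at 93.3 and 85.7 CPM between them. Its 4-cell call was lost without 4-cell edited library 2.

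**Figure D4:**
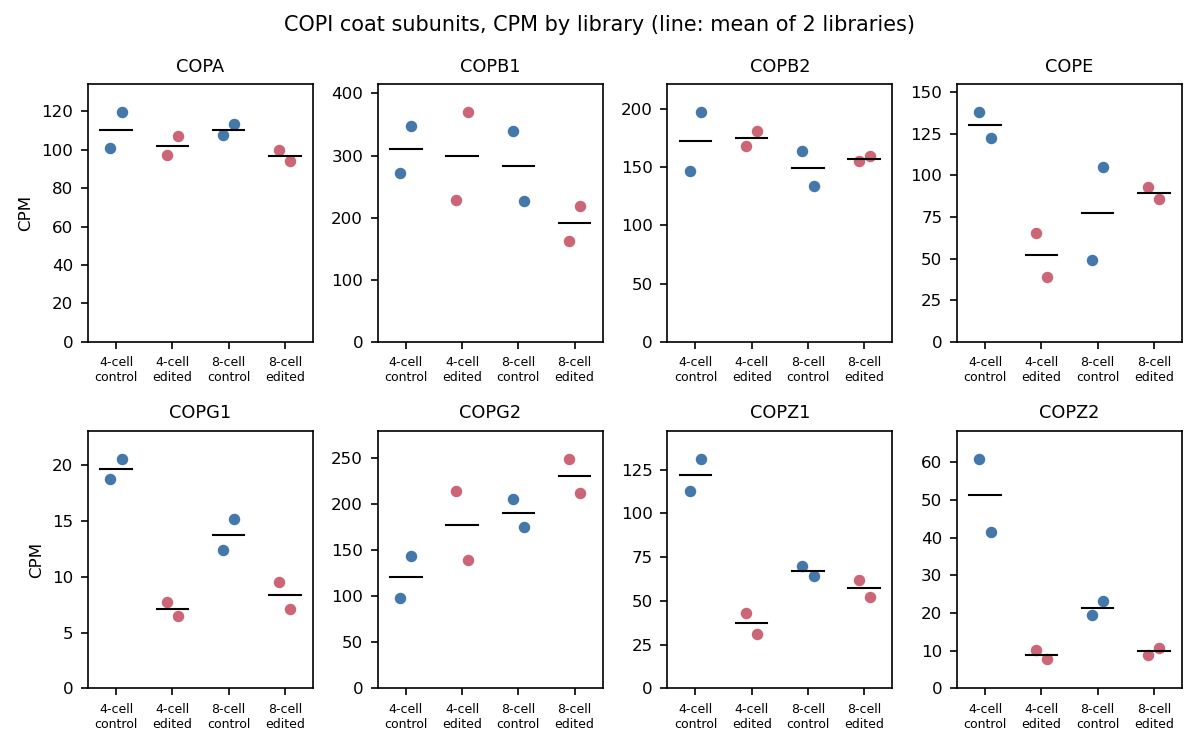
CPM of the 8 COPI coat genes (y axes, from 0, each panel with its own scale) in each of the 8 libraries; points are libraries, lines the mean of the 2 libraries of a group, blue control and red edited. For COPZ1, COPZ2 and COPG1 the 4 edited libraries lie below the 4 controls, whereas the points of COPA lie between 94.0 and 120 CPM.

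The p24 family held the members with the largest log2 fold changes. At the 4-cell stage 7 of its 10 genes were lower with editing and TMED6 was higher, and at the 8-cell stage 4 were lower. TMED1 stood at 51.1 and 43.4 CPM in 4-cell control and 2.40 and 1.87 CPM in 4-cell edited libraries, a 22.1-fold difference (log2 fold change -3.94, SE 0.354, adjusted p = 1.20e-06). In 8-cell embryos it stood at 12.4 and 14.8 CPM in controls and 1.82 and 1.11 CPM in edited libraries, a 9.28-fold difference (-2.58, SE 0.354, adjusted p = 8.48e-05). TMED3 stood at 187 and 143 CPM in 4-cell control and 13.1 and 18.5 CPM in 4-cell edited libraries, 10.5-fold apart (-3.31, SE 0.277, adjusted p = 8.88e-07), and at 45.8 and 50.8 against 14.2 and 17.9 CPM at the 8-cell stage (-1.54, SE 0.277, adjusted p = 0.000851).

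TMED2, which with TMED10 forms the core of p24 complexes, stood at 243 and 238 CPM in 4-cell control, 42.2 and 64.9 CPM in 4-cell edited, 85.1 and 98.6 CPM in 8-cell control and 18.8 and 22.6 CPM in 8-cell edited libraries. The difference was 4.48-fold and 4.44-fold for 4-cell and 8-cell embryos (log2 fold changes -2.18 and -2.10, SE 0.256 for both, adjusted p = 8.57e-06 and 3.22e-05). The calls of TMED1, TMED2 and TMED3 held at both stages in all alternatives except the marker covariate (adjusted p from 0.198 to 0.514 with it). With the covariate their log2 fold changes were -3.52, -1.68 and -3.13 in 4-cell and -2.27, -1.75 and -1.40 in 8-cell embryos. TMED10 stood at 144 and 112 CPM in 4-cell control, 42.3 and 42.0 CPM in 4-cell edited, 49.8 and 56.5 CPM in 8-cell control and 28.2 and 43.9 CPM in 8-cell edited libraries. It was lower at the 4-cell stage (-1.57, SE 0.266, adjusted p = 0.000215) and its 8-cell value of -0.58 did not pass (adjusted p = 0.173).

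TMED4 and TMED9 were alike in pattern. TMED9 stood at 133 and 123 CPM in 4-cell control and 43.0 and 35.5 CPM in 4-cell edited libraries (log2 fold change -1.69, SE 0.235, adjusted p = 4.08e-05). In 8-cell embryos its groups stood at 56.6 and 55.3 against 45.3 and 48.2 CPM (-0.25, adjusted p = 0.532). TMED4 had log2 fold changes of -1.76 and -0.35, the first called. TMED5 stood at 10.2 and 10.4 CPM in 4-cell control, 2.98 and 5.91 CPM in 4-cell edited, 4.86 and 5.62 CPM in 8-cell control and 0.418 and 0.779 CPM (14 and 26 reads) in 8-cell edited libraries. Its 8-cell difference was 8.75-fold (-1.97, SE 0.391, adjusted p = 0.00192), and its 4-cell call (-1.11, adjusted p = 0.0301) was lost in 7 of 19 alternatives, among them edgeR and DESeq2.

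TMED6 was the one member higher in edited embryos. It stood at 2.23 and 5.10 CPM in 4-cell control and 13.6 and 14.1 CPM in 4-cell edited libraries, 3.77-fold apart (log2 fold change 1.74, SE 0.455, adjusted p = 0.00555), and the call was lost without 4-cell control library 1. Its 8-cell controls stood at 5.15 and 15.8 CPM, on either side of the edited libraries at 7.65 and 8.75 CPM. TMED7 was lower without passing at either stage (-0.63 and -0.42, adjusted p = 0.0580 and 0.320), and TMED8 ranged from 4.30 to 13.3 CPM with no call. Over all members, 14 of 46 (30.4%) had all 4 edited libraries below all 4 controls, as did 19.6% of all tested genes, and 0 had all edited libraries above, as did 9.98%.

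**Figure D5:**
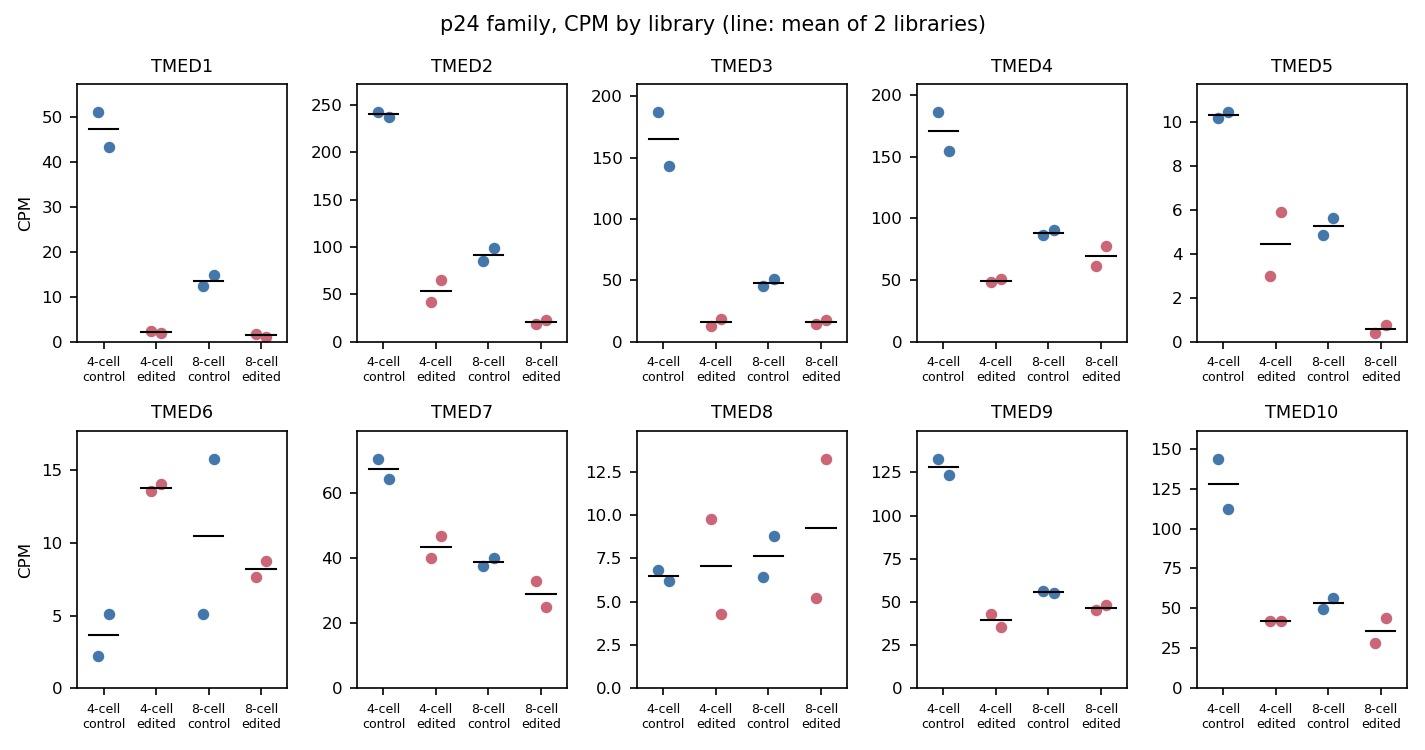
CPM of the 10 p24 genes (y axes, from 0, each panel with its own scale) in each of the 8 libraries; points are libraries, lines the mean of the 2 libraries of a group, blue control and red edited. In all panels but TMED6 and TMED8 both edited libraries lie below both controls at each stage, and in TMED6 the 4-cell order is the opposite.

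Whether the effect of editing differed between the stages was tested directly, as the 8-cell minus the 4-cell log2 fold change. It differed for 5 members (10.9%, against 3.96% of all tested genes): TMED3, TMED9, TMED4, COPZ1 and SEC61A1, with differences from 1.43 to 1.78 and adjusted p from 0.0310 to 0.0465. All 5 were positive, where 1.95% of all genes were called in that direction and 2.00% in the other. This meant a smaller reduction at the 8-cell stage, except for SEC61A1, which was not reduced there. Its 8-cell means were 52.0 CPM in control and 53.1 CPM in edited embryos. None of the TRAP subunits was among them, with differences between -0.06 and 0.73. The 2 stage effects share no library, but these calls were not stable. edgeR called 0 members and 22 of all 12129 tested genes (13 and 2715 with an unadjusted p under 0.05). DESeq2 called 7 members positive and 2 negative, and 1096 of all genes. By limma none of the 5 calls held with any single library other than the second 4-cell or 8-cell control left out. Such fits leave 1 library in a group, and where the calls were lost few genes of any kind were called. With the second 4-cell or 8-cell control left out, some or all of the 5 held. Over the alternatives the 5 differences stayed positive, from 1.21 for SEC61A1 to 2.01 for TMED3.

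In control embryos 10 members fell from the 4-cell to the 8-cell stage (21.7%, against 9.02% of all genes called in either direction) and none rose, where 6.27% of all genes fell and 2.75% rose. They were TMED1, TMED2, TMED3, TMED4, TMED9, TMED10, SSR1, SSR2, COPZ1 and COPZ2. The 4-cell control libraries are those of the 4-cell editing comparison. TMED3 went from 187 and 143 to 45.8 and 50.8 CPM (log2 fold change -1.74, SE 0.277, adjusted p = 0.00830) and TMED2 from 243 and 238 to 85.1 and 98.6 CPM (-1.38, SE 0.256, adjusted p = 0.0114). SSR2 went from 411 and 404 to 172 and 206 CPM (-1.11, SE 0.227, adjusted p = 0.0147), SSR1 from 306 and 285 to 157 and 196 CPM (-0.75, adjusted p = 0.0436), and COPZ2 and COPZ1 had values of -1.20 and -0.85. edgeR called 6 members and 287 of all 12129 tested genes. DESeq2 called 2 members higher and 12 lower, and 1677 of all genes. No call held without 4-cell control library 1 or 8-cell control library 1, fits that leave 1 library in a group and called few genes of any kind. The median log2 fold change of the members was -0.32 and -0.36 in these fits and -0.34 with all libraries. Without 4-cell control library 2 most calls held and further members were called.

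In edited embryos 5 members fell between the stages (10.9%, against 5.18% of all genes called in either direction) and none rose, where 3.73% of all genes fell and 1.45% rose. TMED2 went from 42.2 and 64.9 to 18.8 and 22.6 CPM (log2 fold change -1.30, SE 0.256, adjusted p = 0.0108) and TMED5 from 2.98 and 5.91 to 0.418 and 0.779 CPM (-1.72, SE 0.391, adjusted p = 0.0219). SSR1 went from 111 and 105 to 59.1 and 64.2 CPM (-0.80, SE 0.217, adjusted p = 0.0443), and SRP9 and SPCS3 are given above. SEC61A1 and COPE lay higher at the 8-cell stage in edited embryos without passing (0.88 and 0.81, adjusted p = 0.0759 and 0.155). No call held without 4-cell edited library 2 or 8-cell edited library 1, fits that leave 1 library in a group and called few genes of any kind. The median log2 fold change of the members was -0.18 and -0.12 in these fits and -0.15 with all libraries. Only TMED2 held without 8-cell edited library 2, and only SRP9, TMED2 and TMED5 without 4-cell edited library 1. With either 4-cell control library left out the calls held and further members were called, SEC61A1 among them as higher.

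Several members are pairs of paralogues, and for 8 pairs the log2 ratio of their CPM + 1 was compared between edited and control libraries by an exact two-sided permutation test within stage, whose smallest possible p is 0.0556. The COPG1 to COPG2 log2 ratio was -2.33 and -2.75 for 4-cell controls, -4.63 and -4.24 for 4-cell edited, -3.95 and -3.45 for 8-cell controls and -4.57 and -4.72 for 8-cell edited libraries. All 4 edited libraries lay below all 4 controls, with a mean difference of -1.42 (exact p = 0.0556, adjusted over the 8 pairs 0.222). The COPZ1 to COPZ2 ratio was 0.88 and 1.64 for 4-cell controls, 2.00 and 1.88 for 4-cell edited, 1.78 and 1.43 for 8-cell controls and 2.67 and 2.18 for 8-cell edited libraries, a mean difference of 0.75 (exact p = 0.0556, adjusted 0.222). The SEC23A to SEC23B ratio had a mean difference of 0.65 and the SEC22A to SEC22C ratio one of 0.44 (exact p = 0.111 for both). The SEC61A1 to SEC61A2 ratio and the SEC24 and SEC31 pairs had mean differences between -0.34 and -0.01, with exact p from 0.278 to 0.944. No pair passed after adjustment, which the number of libraries does not permit.

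A list of 80 other genes of the early secretory pathway gave 77 that were in the table and tested, of which 36 were lower and 10 higher with editing at the 4-cell stage, and 11 lower and 1 higher at the 8-cell stage. The shares lower were 46.8% and 14.3%, where 25.8% and 14.5% of all tested genes were lower, so that the 8-cell share is near that of all genes. The shares higher were 13.0% and 1.30%, where 18.9% and 1.08% of all tested genes were higher. The median log2 fold changes were -0.65 and -0.27 over the list and -0.02 and 0.00 over all genes. The oligosaccharyltransferase, which attaches sugars to proteins as they enter the ER, had 8 of 9 genes lower at the 4-cell stage and 5 at the 8-cell stage. Its subunit DDOST stood at 325 and 268 CPM in 4-cell control, 36.9 and 35.7 CPM in 4-cell edited, 120 and 124 CPM in 8-cell control and 62.0 and 73.4 CPM in 8-cell edited libraries (log2 fold changes -2.99 and -0.85, adjusted p = 6.14e-07 and 0.0151). Its subunit RPN2 had log2 fold changes of -2.42 and -1.42. Cargo receptors had 9 of 12 lower and 1 higher at the 4-cell stage and 3 lower at the 8-cell stage, with ERGIC3 at -3.05 and -1.56. Of the genes that insert proteins by other routes 6 of 15 were lower at the 4-cell stage and 3 at the 8-cell stage. The 8-cell count is near the 14.5% of all genes that were lower there. Of the 15, EMC4 stood at 345 and 280 against 82.7 and 94.8 CPM at the 4-cell stage and 156 and 175 against 53.8 and 60.4 CPM at the 8-cell stage (-1.80 and -1.52), and EMC6 had -1.98 and -1.78.

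Of 7 genes of targeting, channel partners and the peptidase, 3 had higher and 3 had lower levels with editing at the 4-cell stage (42.9% each). Of all tested genes 18.9% were higher and 25.8% lower there. The 3 lower included the catalytic subunits of the peptidase. SEC11A stood at 326 and 263 CPM in 4-cell control and 118 and 135 CPM in 4-cell edited libraries. SEC11C stood at 113 and 96.8 against 70.3 and 62.4 CPM. Neither was called at the 8-cell stage. SEC63, which helps the channel open, was higher with editing at the 4-cell stage, at 42.2 and 92.4 CPM in control and 212 and 205 CPM in edited libraries (log2 fold change 1.72, SE 0.301, adjusted p = 0.000277). The oligosaccharyltransferase subunit STT3B (1.29) and CNIH1 (1.11), a cargo receptor, were higher too. TRAM2 was the 1 gene of the list higher at the 8-cell stage, at 101 and 80.1 CPM in control and 159 and 160 CPM in edited libraries (0.82, SE 0.223, adjusted p = 0.0180). The COPII assembly group had 3 of 9 lower and 2 higher at the 4-cell stage and the COPI group 4 of 10 lower. Of the 10 fusion and tethering genes 3 were higher and 2 lower. No gene of these 3 groups was called by limma at the 8-cell stage. The coat subunits SEC13 (COPII) and ARCN1 (COPI) were among those lower at the 4-cell stage. SEC13 stood at 338 and 363 CPM in 4-cell control and 187 and 132 CPM in 4-cell edited libraries. In 8-cell embryos it stood at 236 and 265 CPM in controls and 270 and 286 CPM in edited libraries. ARCN1 stood at 283 and 263 against 136 and 115 CPM at the 4-cell stage. Its 8-cell values were 217 and 149 against 129 and 136 CPM. XBP1, a transcription factor that switches on ER genes, was the 1 regulator of 5 called, at 185 and 168 CPM in 4-cell control, 53.0 and 51.4 CPM in 4-cell edited, 83.3 and 74.6 CPM in 8-cell control and 61.3 and 56.3 CPM in 8-cell edited libraries (-1.74 at the 4-cell stage, SE 0.224, adjusted p = 2.01e-05).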

How the data were processed

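Per the submitters' processing notes the tools were Trim Galore 0.6.7, HISAT2 2.2.1 and featureCounts 2.0.1; their settings, the genome build and the annotation are not given in the sources used here. Per the labels, mRNA was captured and amplified with a Smart-seq kit and tagmented, with no molecular identifiers or strand named. The deposited values are CPM per gene and library, although the table is named for raw counts: columns sum to 992528 to 1007024, and within 0.05 reads, 100% of values above 0 are multiples of 1 step per library, from which reads were recovered. Of 12 columns, 8 carry the names of the samples and the other 4 were not used. limma 3.58.1 (R 4.3.3), with an intensity trend and 1 mean per group, was fitted to log2(CPM + 1) of the 12129 genes that averaged 1 CPM or more. A log2 fold change is on that scale and understates the change of weak genes; other folds are ratios of mean CPM. P-values were adjusted by Benjamini-Hochberg over all genes tested, and genes called at 0.05. edgeR 4.0.16 and DESeq2 1.42.0 on the recovered reads were alternatives, beside other pseudocounts, filters and scaling, leaving out each library, a replicate block and a covariate of marker transcripts. Nothing in the labels says that the libraries of a group came from separate fertilisations, so p-values measure the spread between these libraries, which may be technical. Library pairs of a group correlated at 0.971 to 0.978 and differed by more than sampling noise. Members and lists were chosen with earlier results of these data known. For each comparison the rule named up to 2 called members per role and direction by smallest p-value, paralogue pairs, SPCS2 and RPL12, and up to 3 list genes per direction; further members are named to complete a complex and were chosen after their values were seen. Reads of near-identical copies are uncertain where counting could split them.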

Additional observations from a re-analysis of the deposited data

Results flagged for a closer look

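The effect of editing differed between the stages for 5 members by limma's test of the difference itself. The 8-cell minus the 4-cell log2 fold change was 1.78 (SE 0.392, adjusted p = 0.0310) for TMED3, 1.43 (SE 0.333, adjusted p = 0.0344) for TMED9, 1.41 (SE 0.328, adjusted p = 0.0350) for TMED4, 1.48 (SE 0.352, adjusted p = 0.0352) for COPZ1 and 1.47 (SE 0.389, adjusted p = 0.0465) for SEC61A1. Over the alternatives the adjusted p ranged from 0.00223 to 0.132 for TMED3, 0.00169 to 0.132 for TMED9, 0.00443 to 0.140 for TMED4, 0.00180 to 0.147 for COPZ1 and 0.00646 to 0.216 for SEC61A1. In each alternative the 5 differences stayed positive. The 4-cell controls, which with the 4-cell edited libraries set the 4-cell effect, had the highest summed cumulus and granulosa markers, 1926 and 1553 CPM. For all 5 members control means fell and edited means rose between the stages. In edited embryos TMED3 went from 15.8 to 16.1 CPM and SEC61A1 from 28.6 to 53.1 CPM. The part of the marker transcripts in the difference was not tested beyond the covariate. With it limma called 0 of the members and 15 of all 12129 tested genes, and 11 members and 2018 of all genes had an unadjusted p under 0.05. Of the 21 tested markers 15 were themselves lower with editing at the 4-cell stage, so the covariate cannot separate marker levels from editing.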

How the results depend on the processing

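The calls of SSR1, SSR2, SSR4, TMED1, TMED2 and TMED3 between edited and control embryos were lost only under the covariate of cumulus and granulosa markers, with which their log2 fold changes lay between -3.52 and -1.17. With it 0 members were called at the 4-cell stage, 0 at the 8-cell stage, 0 for the difference between stages, 0 between stages in controls and 2 in edited embryos, with 12, 7, 11, 11 and 12 at an unadjusted p under 0.05 by limma. Of all 12129 tested genes 1, 49, 15, 17 and 394 were called with it, and 1308, 988, 2018, 1276 and 2289 had an unadjusted p under 0.05. Leaving out each library gave 16 to 23 members at the 4-cell and 7 to 10 at the 8-cell stage, 0 to 10 for the difference, 0 to 16 between stages in controls and 0 to 8 in edited embryos. Without a filter on low values limma called 0 members for the difference, 0 between stages in controls and 0 in edited embryos (14, 18 and 14 at an unadjusted p under 0.05). Of all 16586 genes then tested 0, 1 and 17 were called (2993, 3755 and 2784 at an unadjusted p under 0.05). With TMM scaling 3 members were called for the difference, and 365 of all 12129 tested genes. edgeR called 0 for the difference, 6 between stages in controls and 2 in edited embryos, and 22, 287 and 409 of all tested genes. DESeq2 called 9 for the difference and, in edited embryos, 8 (1 higher and 7 lower), and 1096 and 1299 of all tested genes. With only the groups compared, 3 were called between stages in controls and 9 in edited embryos, and 161 and 1149 of all tested genes. The causes were not tested. The mean difference of the SEC24A to SEC24B log2 ratio, edited minus control, went from -0.01 to 0.0014 with a pseudocount of 5. The replicate block called 21, 10, 4, 8 and 4 members in the 5 comparisons, and 5224, 1842, 386, 985 and 554 of all tested genes. Sample titles share only a number, and the deviations of same-numbered libraries correlated at 0.11 and -0.09 between conditions and at -0.30 and 0.02 between stages. Exchanging the numbers of the 8-cell controls, chosen after seeing the data, gave 23, 10, 6 and 12 members in the first 4 comparisons. Of all tested genes it gave 5746, 2140, 864 and 1690. Depth limited SPCS2, with at most 28 reads, and TMED5 in 8-cell edited embryos. Of the 51 calls of members over the 5 comparisons, edgeR kept 34, DESeq2 48 and TMM scaling 44.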

Other observations

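The order of the 4 group means was compared over the members as a description. For 18 of 46 tested members (39.1%) the mean CPM was highest in 4-cell controls, next in 8-cell controls and lowest in the 2 edited groups, and the same order was found for 29.8% of the 12129 tested genes. These 18 include all 4 TRAP genes and 7 of the 10 p24 genes, and none of the SEC24 or SEC31 genes.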
